A study of Urocitellus parryii with 24 samples.

Results

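Proteasome and ubiquitin pathway genes were examined in the liver of the Arctic ground squirrel (AGS, Urocitellus parryii), a hibernator that cycles through the winter between torpor and short arousal episodes. The members were the genes in the study's supplementary list of differentially expressed genes whose symbol begins with PSM, UBE, USP, UBA, UBQLN, CUL, FBX or DERL. The rule found 22 of 1329 listed genes with a symbol, and no listed symbol began with CUL. Each was matched to 1 of 9600 cDNA probes on the array by its mean levels in the 3 states. The list was itself chosen by an analysis of variance over these states on these arrays, with 1 probe kept per gene. The differences between states below therefore describe genes already picked for such differences, and their tests are not independent evidence. In the same analysis of variance repeated here, the q-values of the members ran from 0.00149 for UBQLN1 to 0.0502 for PSMB6, which lay at the threshold of the list.

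The arrays held 24 livers, 1 animal each. Torpor (T) comprised 4 early and 5 late torpor animals, taken near the start and near the end of a torpor bout. Arousal (A) comprised 4 early and 4 late arousal animals, taken soon after rewarming and later within the same euthermic episode. The 7 summer active animals (P) were euthermic and post-reproductive, and served as the non-hibernating control. All animals were wild-caught, and those sampled in winter carried temperature transmitters in the abdomen. T and A animals had no food during hibernation and were kept under short days, so season, feeding and light schedule cannot be told apart from hibernation in any difference from P. T animals were killed without anesthesia and all others under isoflurane, so anesthesia cannot be told apart from torpor. Animals are numbered within each group.

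Ubiquitin is attached to proteins by a chain of activating, conjugating and ligating enzymes, and chains of it mark a protein for the proteasome. The proteasome is a barrel-shaped 20S core with the proteolytic sites inside, capped by a 19S regulatory particle that recognises, unfolds and feeds in the substrate. Deubiquitinases remove the mark, shuttle proteins carry marked proteins to the proteasome, and in hepatocytes, which secrete much protein, misfolded proteins of the endoplasmic reticulum reach it through ER-associated degradation.

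A level here is the log2 of the background-subtracted signal of a probe divided by the median of its array, so that 0 is the array median. Levels of different probes are not comparable, and differences are given in the order named, with the standard error of the limma fit. Median signal was 54.1 to 132 per array, with a median background of 13.3 to 19.9. Signal differed by state, with medians over arrays of 79.5 in T, 107.7 in A and 76.1 in P. Spots marked empty over all probes had medians of 87, 70.5 and 122 in the same order. The part of this in the differences was not tested. No member spot was marked empty on any array. The signal was above 2 times background on all 24 arrays for 19 members, on 23 for FBXO18 and on 14 for FBXW7. All 8 hepatocyte markers had a probe. The log2 of their summed ratios to the array median had medians of 9.57 in T, 9.14 in A and 9.43 in P. The 3 macrophage markers with a probe, of 7, had medians of 3.74, 3.04 and 3.42. In the same order the medians were 1.63, 1.59 and 1.77 for stellate cells or fibroblasts (3 of 5 markers with a probe), 2.85, 2.50 and 2.67 for endothelium (2 of 4) and 0.36, 0.32 and 0.71 for bile duct (1 of 3). They were 1.21, -0.093 and 1.12 for red blood cells (1 of 2) and 2.02, 2.15 and 2.0004 for heart and skeletal muscle (6 of 6). The red blood cell marker lay lower in A than in T or P at the median. A sum follows its brightest probes, and markers within a list moved in opposite directions, so similar sums do not show equal cell makeup. T minus P over all arrays was 1.36 ± 0.31 for FCGR3A and 0.92 ± 0.26 for LAPTM5 but -0.49 ± 0.33 for LYZ, all macrophage markers. In the muscle list it was 1.35 ± 0.32 for ACTA1 and -1.19 ± 0.29 for DES. The part of cell makeup in the differences below was not tested, and in whole liver fewer cells of a type and less RNA per cell cannot be told apart. A cDNA probe can also bind close relatives of its gene, which was not tested.

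The array filters came from 2 sets, named A1 and A2 in the file headers, and these were spread unequally over the states. All 9 T animals and 7 of 8 A animals were on A1, whereas 5 of 7 P animals were on A2. The exceptions were late arousal animal 2, on A2, and P animals 1 and 3, on A1. Differences from P are therefore given over all arrays and with filter set blocked in the fit, and in places also from the A1 arrays, among which only 2 were of P animals. The plot of differences from P holds all 3 for each gene. The prefix of the animal identifiers also differed by state. It was 04 in 7 of 9 T, 7 of 8 A and 1 of 7 P animals. Neither P animal on A1 had this prefix, so A1 alone does not balance it between P and the winter animals.

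In the comparison of T with P, 13 of 22 members were called at an adjusted p under 0.05 (limma, Benjamini-Hochberg over all probes), where 9.86% of all probes were called. The 5 higher in T, PSMD9, PSMD13, PSMF1 and USP15 among them, stand beside 5.5% of all probes, and the 8 lower, PSMB1, PSME4, UBE2L3, UBE2R2, FBXL10, FBXW7, UBQLN1 and DERL2, beside 4.35%. In the comparison of A with P, 6 members were called, where 8.47% of all probes were. USP15 was the 1 member higher in A (2.61% of all probes), and PSMB5, PSMD12, PSME4, UBE2L3 and UBAP1 were the 5 lower (5.85%). Both comparisons use the same P arrays, and the members were chosen on both, so the shares over all probes are an unlike comparison. With the filter set as a block, 0 members were called in either comparison, where 0.969% of all probes were called in T against P and 2.71% in A against P. At an unadjusted p under 0.05 the block left 1 member in T against P (10.4% of all probes) and 2 in A against P (12.8%). On A1 filters alone UBQLN1 was the 1 member called in T against P (0.896% of all probes), and 0 were called in A against P (0.876%), with 4 at an unadjusted p under 0.05 (10.8%).

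The differences were also smaller with the block. The median absolute difference between T and P over the 22 members was 0.80 without the block and 0.18 with it, against 0.25 and 0.21 over all probes. Between A and P it was 0.63 without and 0.28 with the block, against 0.26 and 0.20 over all probes. With the block, 20 of 22 members had a smaller T minus P difference and 9 turned its sign, where 5335 and 3531 of 9595 probes did. All probes are an unlike comparison, because the members were picked for differences that the filter sets enter. Of 1328 genes of the list, picked in the same way, 990 had a smaller T minus P difference and 219 turned its sign. Their median absolute difference was 0.60 without and 0.28 with the block, and 0.59 and 0.32 between A and P.

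**Figure D1:**
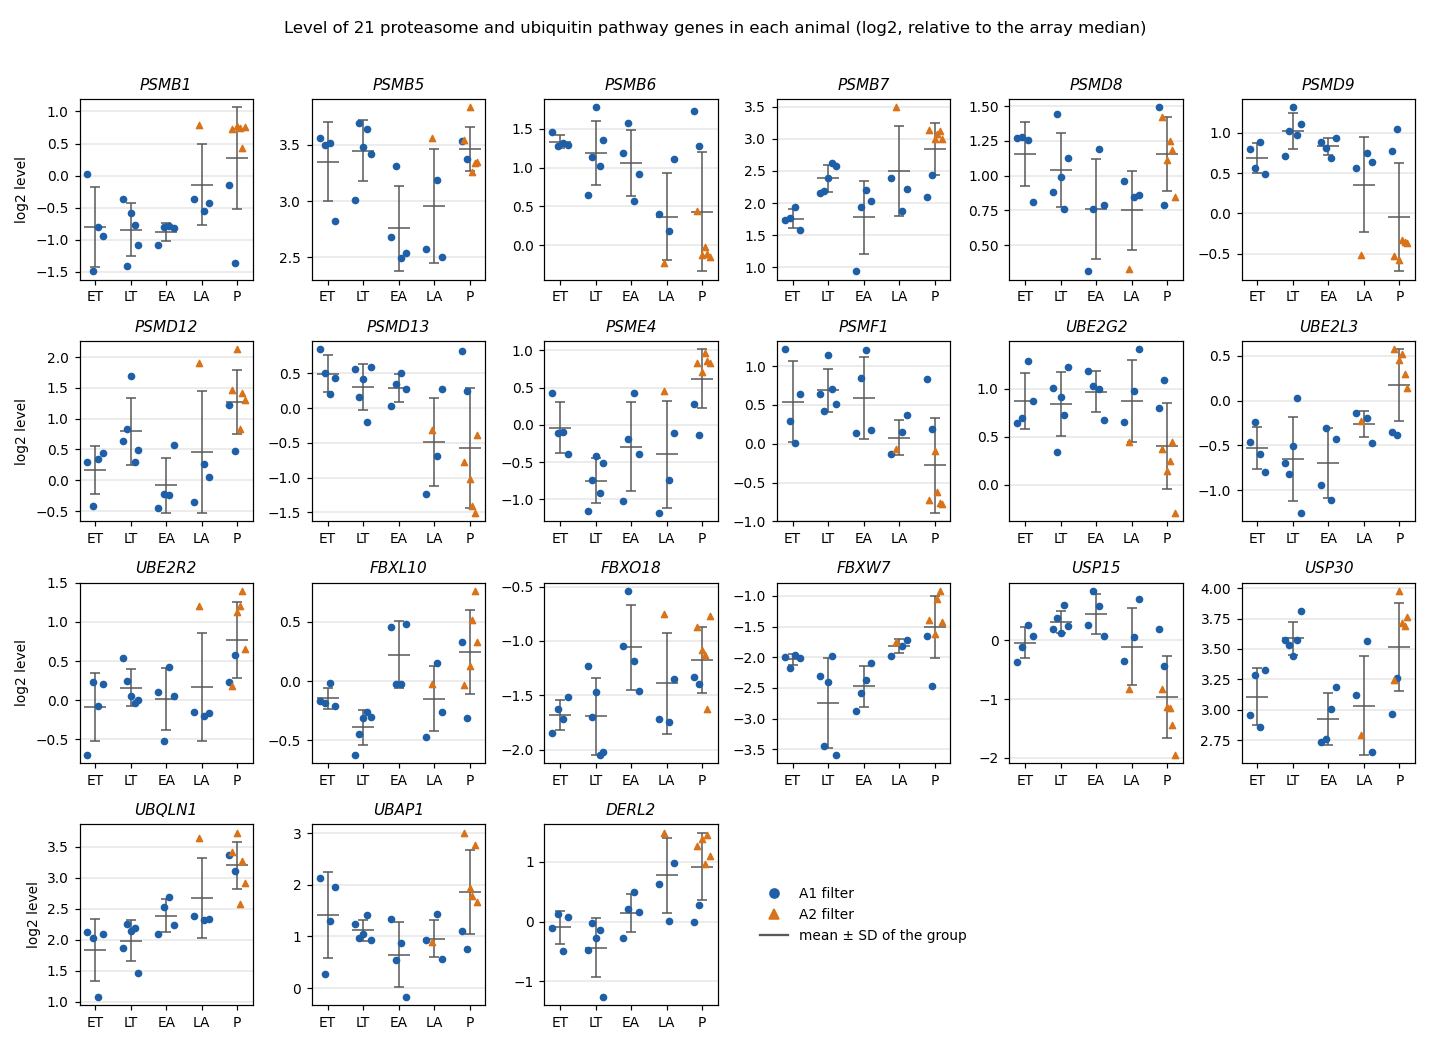
Level of each of 21 genes (log2, relative to the array median) in every animal by status group (ET, early torpor; LT, late torpor; EA, early arousal; LA, late arousal; P, summer active). Circles are A1 filters, triangles A2 filters, bars mean ± SD. For PSMB1, PSMB6, PSMD9 and DERL2 the 2 P animals on A1 lie apart from the 5 P animals on A2.

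The 20S core was represented by 4 beta subunits. PSMB1, a beta subunit without a proteolytic site, had levels of -1.49, -0.80 and 0.02 in T (lowest, median and highest of 9), -1.09, -0.67 and 0.79 in A (of 8) and -1.36, 0.73 and 0.77 in P (of 7). The high values were those of the A2 filters: the 5 P animals on A2 lay between 0.43 and 0.77 and late arousal animal 2 at 0.79, while the P animals on A1 were at -0.15 and -1.36. The T minus P difference was -1.10 ± 0.29 without and -0.06 ± 0.27 with the block.

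PSMB5 carries the chymotrypsin-like site, the one most proteasome inhibitors bind. Its levels were 2.83, 3.50 and 3.70 in T, 2.49, 2.62 and 3.56 in A and 3.26, 3.38 and 3.84 in P. In T, 2 animals lay below the lowest P animal and 6 of 9 above the P mean, while 7 of 8 A animals lay below that mean. The A animal above was the one on an A2 filter. A minus P was -0.61 ± 0.18 (adjusted p = 0.0328 by limma), -0.42 ± 0.21 with the block (adjusted p = 0.414) and -0.70 ± 0.26 on A1 alone (adjusted p = 0.273). The P animals on A1, at 3.38 and 3.53, lay within the range of those on A2.

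PSMB6 carries the caspase-like site and PSMB7 the trypsin-like site. PSMB6 had levels of 0.65, 1.29 and 1.78 in T, -0.24, 0.74 and 1.57 in A and -0.15, -0.03 and 1.72 in P. The P animals on A1, at 1.72 and 1.28, were among the T animals, and T minus P moved from 0.82 ± 0.27 to -0.14 ± 0.25 with the block. A minus P was 0.28 ± 0.28 over all arrays, -0.51 ± 0.24 with the block (adjusted p = 0.351 by limma) and -0.65 ± 0.31 on A1 alone (adjusted p = 0.445). PSMB7 had levels of 1.58, 2.16 and 2.62 in T, 0.93, 2.11 and 3.50 in A and 2.09, 3.004 and 3.14 in P. The highest A value was again that of the A2 filter, and T minus P moved from -0.74 ± 0.25 to 0.04 ± 0.26. Neither gene passed the test against P (adjusted p = 0.0505 and 0.0564 in T against P, limma).

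The 19S regulatory particle gave PSMD8, PSMD12 and PSMD13, subunits of its lid, and PSMD9, a chaperone for the assembly of its base. PSMD9 had levels of 0.50, 0.88 and 1.32 in T, -0.52, 0.72 and 0.94 in A and -0.58, -0.36 and 1.05 in P. All 6 animals on A2 lay between -0.58 and -0.34, and all 18 on A1 between 0.50 and 1.32. PSMD9 thus had a T minus P difference of 0.93 ± 0.23 without the block, -0.02 ± 0.17 with it and -0.04 ± 0.21 on A1 alone.

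PSMD13 lay between -0.21 and 0.85 in T, with a median of 0.43, and between -1.51 and 0.82 in P, with a median of -0.78. Its T minus P difference was 0.97 ± 0.29 without the block, 0.21 ± 0.33 with it and -0.15 ± 0.35 on A1 alone. PSMD12, whose spot is next to that of PSMD13 on the membrane, was highest in P, with levels of -0.42, 0.44 and 1.70 in T, -0.45, -0.09 and 1.90 in A and 0.48, 1.31 and 2.13 in P. A minus P was -1.08 ± 0.30, with -0.43 ± 0.32 under the block and -0.91 ± 0.36 on A1 alone (adjusted p = 0.332 by limma).

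PSMD8 differed little by filter set, with an A2 minus A1 difference of -0.17 ± 0.20 at equal state. Its levels were 0.76, 1.13 and 1.44 in T, 0.31, 0.82 and 1.19 in A and 0.79, 1.19 and 1.49 in P. It was not called against P in either state, with A minus P at -0.40 ± 0.16 and at -0.50 ± 0.19 with the block.

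PSME4 encodes the activator that caps the core in place of the 19S particle and acts without ubiquitin, and PSMF1 encodes a proteasome-binding protein first described as an inhibitor of the core. PSME4 had levels of -1.16, -0.41 and 0.43 in T, -1.18, -0.29 and 0.46 in A and -0.13, 0.83 and 0.97 in P. No T or A animal reached the P mean of 0.62, but the P animals on A1 were at 0.28 and -0.13. T minus P was -1.05 ± 0.24 and A minus P -0.97 ± 0.25, and the block reduced them to -0.47 ± 0.29 and -0.48 ± 0.27. PSMF1 differed the other way, with levels of 0.01, 0.64 and 1.22 in T and -0.77, -0.62 and 0.83 in P. The difference between T and P was 0.90 ± 0.24, and 0.29 ± 0.27 with the block.

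Other members encode conjugating enzymes. UBE2L3 supplies ubiquitin to HECT and RBR ligases, and UBE2R2 works with cullin-RING ligases. UBE2L3 had levels of -1.26, -0.60 and 0.03 in T, -1.11, -0.37 and -0.14 in A and -0.39, 0.29 and 0.57 in P. Late arousal animal 2, at -0.23, lay here within the range of the A animals on A1. The P animals on A1, at -0.39 and -0.35, lay apart from those on A2, between 0.14 and 0.57. On A1 alone T minus P was -0.23 ± 0.28 and A minus P -0.15 ± 0.29. Over all arrays T minus P was -0.77 ± 0.19 and A minus P -0.66 ± 0.20, against -0.36 ± 0.23 and -0.31 ± 0.22 with the block. UBE2R2 lay between -0.70 and 0.54 in T and between 0.18 and 1.40 in P, and T minus P was -0.72 ± 0.22, and -0.15 ± 0.26 with the block.

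UBE2G2, an enzyme of ER-associated degradation, lay between 0.34 and 1.29 in T, 0.44 and 1.41 in A and -0.29 and 1.08 in P. It was not called, with T minus P at 0.46 ± 0.18 and, with the block, at -0.03 ± 0.21.

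The F-box proteins are substrate receptors of SCF ligases. FBXL10, also a histone demethylase, had levels of -0.62, -0.26 and -0.01 in T, -0.48, -0.02 and 0.48 in A and -0.32, 0.33 and 0.76 in P. FBXL10 had a T minus P difference of -0.52 ± 0.16, and -0.39 ± 0.21 with the block. FBXW7, the receptor for cyclin E and MYC, lay between -3.59 and -1.96 in T and between -2.48 and -0.92 in P, with a signal above 2 times background on 14 of 24 arrays. T minus P was -0.93 ± 0.26, and -0.46 ± 0.33 with the block. FBXO18, also a DNA helicase, was not called, with levels of -2.05, -1.70 and -1.23 in T, -1.74, -1.27 and -0.54 in A and -1.63, -1.13 and -0.77 in P. Its T minus P difference was -0.51 ± 0.18, and -0.25 ± 0.23 with the block.

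Both deubiquitinases remove ubiquitin from substrates, USP30 at the outer mitochondrial membrane, where it restrains mitophagy. USP15 had levels of -0.36, 0.19 and 0.60 in T, -0.83, 0.17 and 0.85 in A and -1.95, -1.14 and 0.19 in P. All 9 T and all 8 A animals lay above the P mean. T minus P was 1.12 ± 0.25 and A minus P 1.13 ± 0.26, and the block left 0.29 ± 0.25 and 0.45 ± 0.23. Among the A1 arrays the same differences were 0.28 ± 0.28 and 0.43 ± 0.29. USP30 had levels of 2.86, 3.45 and 3.81 in T, 2.66, 2.90 and 3.57 in A and 2.96, 3.69 and 3.98 in P. Its A minus P difference of -0.54 ± 0.18 did not pass (adjusted p = 0.0556 by limma), and was -0.38 ± 0.21 with the block.

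UBQLN1, a shuttle protein that binds ubiquitin chains at one end and the proteasome at the other, had the smallest adjusted p of the 22 members in T against P. Its levels were 1.08, 2.09 and 2.26 in T, 2.09, 2.36 and 3.65 in A and 2.58, 3.26 and 3.73 in P. The highest T animal lay below the lowest P animal. It was the 1 member of 22 in which T and P did not overlap, beside 0.813% of all probes without overlap in either direction. The P animals on A1, at 3.37 and 3.11, lay within the range of those on A2. T minus P was -1.28 ± 0.21 over all arrays (adjusted p = 0.000482 by limma), -0.96 ± 0.27 with the block (adjusted p = 0.0876) and -1.33 ± 0.26 on A1 alone (adjusted p = 0.0140). The A mean, 2.53, lay between those of T, 1.91, and P, 3.20, and the A animals overlapped both groups. Late arousal animal 2, on A2, stood at 3.65 while the other 7 A animals lay between 2.09 and 2.68. A minus P was -0.67 ± 0.21 over all arrays (adjusted p = 0.0503 by limma), -0.41 ± 0.26 with the block (adjusted p = 0.567) and -0.87 ± 0.27 on A1 alone (adjusted p = 0.148).

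DERL2 encodes a membrane protein of the retrotranslocation step of ER-associated degradation. Its levels were -1.26, -0.13 and 0.13 in T, -0.28, 0.36 and 1.49 in A and -0.0025, 1.10 and 1.45 in P. The P animals on A1 were at -0.0025 and 0.29, and those on A2 between 0.96 and 1.45. T minus P was -1.21 ± 0.25, and -0.40 ± 0.25 with the block. UBAP1, a subunit of the ESCRT-I complex that sorts ubiquitinated cargo in endosomes, had levels of 0.27, 1.24 and 2.13 in T, -0.17, 0.88 and 1.43 in A and 0.75, 1.78 and 3.01 in P. A minus P was -1.06 ± 0.30, -0.55 ± 0.34 with the block and -0.14 ± 0.39 on A1 alone.

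**Figure D2:**
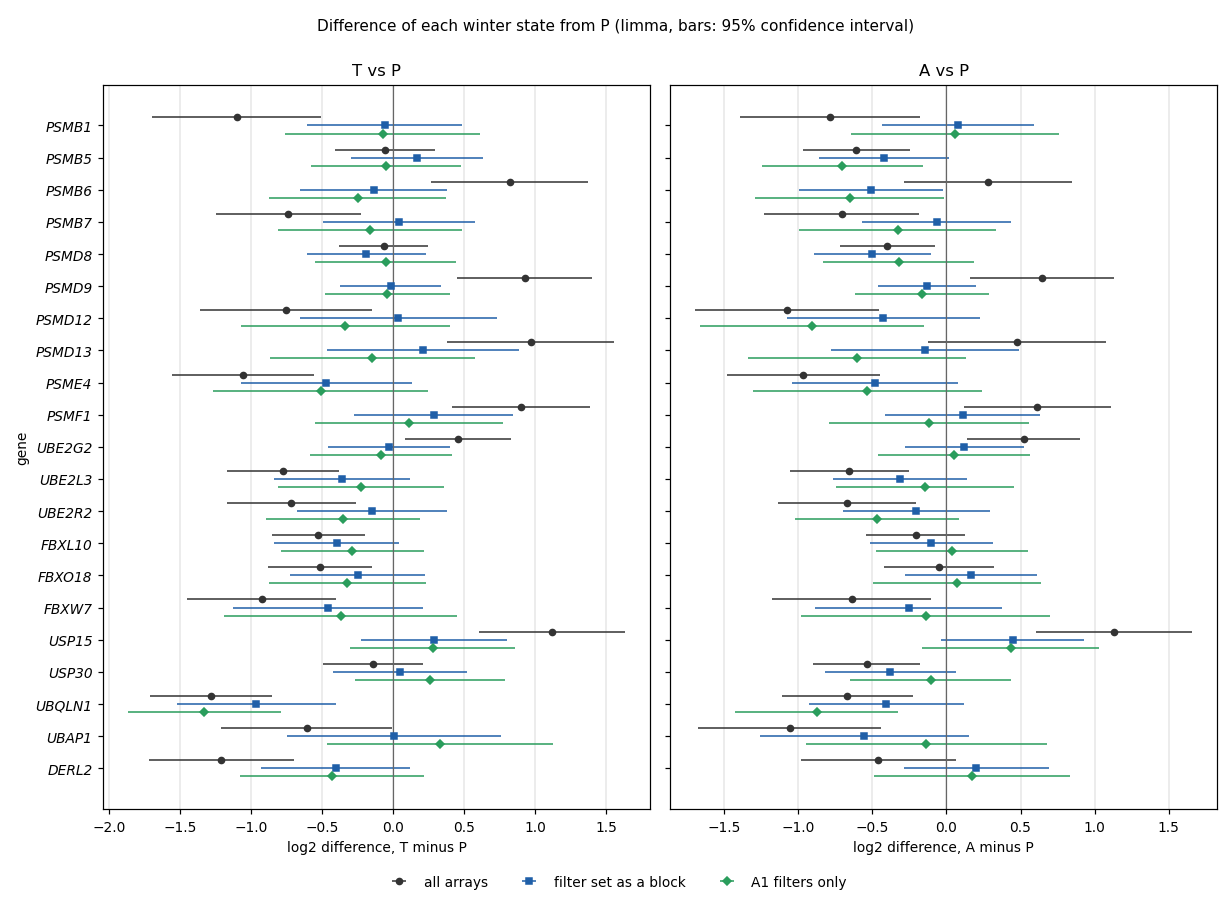
Difference of T (left) and A (right) from P for each gene in log2, with 95% confidence intervals of the limma fit. Black circles are all arrays, blue squares the fit with filter set as a block, and green diamonds A1 filters alone. UBQLN1 in T against P stays near -1 in all 3, while in that comparison PSMB1, PSMD9 and PSMB6 move closer to 0.

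The difference between filter sets was read at equal state, from the P and A animals. A2 minus A1 was past the threshold in 13 of 22 members, where 20.1% of all probes were past it. On A2, 6 were higher (9.8% of all probes) and 7 lower (10.3%). This count is also a description, because a difference between filter sets enters the difference from P by which the genes were picked. The differences were 1.46 ± 0.25 for PSMB1, 1.13 ± 0.24 for DERL2, 1.10 ± 0.32 for PSMD12 and 1.09 ± 0.25 for PSMB7. They were -1.34 ± 0.24 for PSMB6, -1.32 ± 0.16 for PSMD9, -1.16 ± 0.24 for USP15 and -1.06 ± 0.31 for PSMD13. UBQLN1, at 0.45 ± 0.26, PSMB5, at 0.31 ± 0.22, USP30, at 0.27 ± 0.22, and FBXL10, at 0.18 ± 0.20, were not past the threshold. Without late arousal animal 2, the 1 A animal on A2, the count was 8 in place of 13. The differences were then 0.58 for PSMD12 (adjusted p = 0.377 by limma), 0.80 for PSMB7 (adjusted p = 0.0988), 0.0090 for PSMB5 and -0.064 for UBQLN1. Without P animal 1 that of PSMD13 was -0.75 (adjusted p = 0.163 by limma), and without P animal 3 neither PSMD12 nor PSMD13 was past the threshold. In 14 of 22 members the 2 P animals on A1 did not overlap the 5 on A2, where 29.4% of all probes showed none. Among the cell type markers, ACTA1, at -1.77, and DES, at 1.49, also differed between filter sets. With the block their T minus P differences were 0.08 and -0.13. Those of the macrophage markers FCGR3A, LAPTM5 and LYZ were 0.80 ± 0.40, 0.47 ± 0.33 and -0.45 ± 0.45 with the block. Animals of P on A1 and A2 may differ in other ways too, and filter set and animal cannot be told apart within P.

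The comparison of T with A rests almost wholly on A1 filters. Over all arrays 0 of 22 members were called (limma), where 0.469% of all probes were, with 8 members at an unadjusted p under 0.05 against 14.1% of all probes. The block left the count at 0 (1.29% of all probes). On A1 filters, 9 T against 7 A, PSMB5 was called, where 1.38% of all probes were. Its difference was 0.55 ± 0.17 over all arrays (adjusted p = 0.101) and 0.65 ± 0.16 on A1 (adjusted p = 0.0490), and 8 of 9 T animals lay above the A mean. The proteasome subunits of both particles had T minus A differences on A1 of 0.40 ± 0.19 for PSMB6, 0.27 ± 0.15 for PSMD8, 0.57 ± 0.23 for PSMD12 and 0.46 ± 0.22 for PSMD13, none of them called. PSMB1, at -0.13 ± 0.21, PSMB7, at 0.17 ± 0.20, and PSMD9, at 0.12 ± 0.14, lay closer to 0.

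UBQLN1 and DERL2 lay lower in T than in A without passing the test. No T animal reached the A mean of either gene, nor that of FBXL10 or FBXO18. The T minus A difference of UBQLN1 was -0.61 ± 0.20 over all arrays (adjusted p = 0.137) and -0.45 ± 0.17 on A1 (adjusted p = 0.173). That of DERL2 was -0.75 ± 0.24 (adjusted p = 0.124) and -0.60 ± 0.20 on A1 (adjusted p = 0.128). FBXO18 lay at -0.46 ± 0.17 and, on A1, at -0.39 ± 0.17, and FBXL10 at -0.32 ± 0.15 and -0.32 ± 0.16. USP30 lay higher in T, at 0.39 ± 0.17 and, on A1, at 0.37 ± 0.16, also without passing the test.

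**Figure D3:**
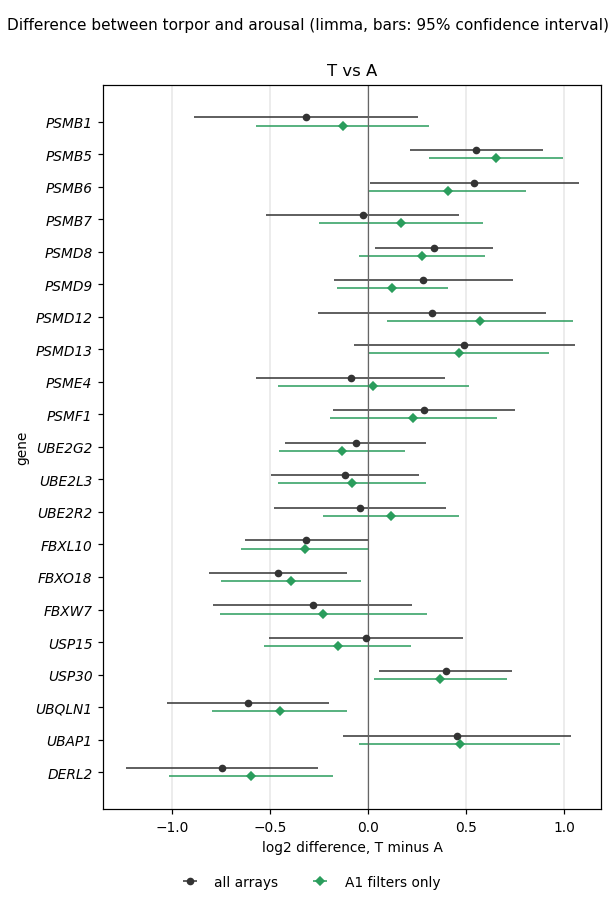
T minus A difference of each gene in log2, with 95% confidence intervals of the limma fit, over all arrays (black circles) and A1 filters alone (green diamonds). PSMB5 lies furthest to the right on A1, at 0.65, and DERL2 furthest to the left, at -0.60.

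The stages within a state were not compared to pick the genes. A difference between stages adds to the spread within states in that analysis of variance, so the stage counts are not wholly free of the choice. The 2 comparisons across states that follow them overlap with the comparison of T with A. No member was called between early and late torpor, or between early and late arousal, and 0% of all probes were called in either comparison. At an unadjusted p under 0.05 there were 4 members in torpor (4.77% of all probes) and 2 in arousal (7.79%). The 4 in torpor were PSMB7, PSME4, FBXW7 and USP30. PSMB7 was at 1.73, 1.76, 1.94 and 1.58 in early torpor and at 2.16, 2.18, 2.39, 2.62 and 2.57 in late torpor, so that the stages did not overlap. The early minus late difference was -0.63 ± 0.29 (adjusted p = 0.983 by limma). PSME4 was at 0.43, -0.10, -0.10 and -0.39 in early torpor and at -1.16, -0.74, -0.41, -0.91 and -0.51 in late torpor, a difference of 0.71 ± 0.31 (adjusted p = 0.983). The stages of torpor did not overlap in PSMB7, PSME4, FBXL10 and USP30, 4 of 22 members, where 2.7% of all probes showed none. The 2 in arousal were PSMB7 and FBXW7. Early minus late arousal was -0.72 ± 0.30 for PSMB7, and -0.39 ± 0.26 on A1. For FBXW7 it was -0.66 ± 0.32, and -0.64 ± 0.33 on A1. The stages of arousal did not overlap in PSMB1 and FBXW7, 2 of 22 members, beside 3.49% of all probes.

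USP30 showed the late torpor animals apart from both neighbouring stages. Its levels were 2.96, 3.28, 2.86 and 3.33 in early torpor, 3.57, 3.53, 3.45, 3.57 and 3.81 in late torpor and 2.74, 2.76, 3.004 and 3.19 in early arousal. Every late torpor animal lay above all 8 animals of these neighbouring stages, all on A1 filters. Early minus late torpor was -0.48 ± 0.22 (adjusted p = 0.983), and early arousal minus late torpor was -0.66 ± 0.22 (adjusted p = 0.148 by limma).

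From late torpor to early arousal 0 members were called, where 0.667% of all probes were, and 6 had an unadjusted p under 0.05 against 12.8% of all probes. Besides USP30 these were PSMB5, PSMB7 and PSMD12, lower in early arousal, and FBXL10 and FBXO18, higher. FBXL10 was at -0.62, -0.45, -0.31, -0.26 and -0.31 in late torpor and at 0.45, -0.02, -0.03 and 0.48 in early arousal, without overlap. Its difference was 0.61 ± 0.20 (adjusted p = 0.155). PSMB5 was at 3.01, 3.70, 3.48, 3.65 and 3.42 in late torpor and at 2.68, 3.32, 2.49 and 2.53 in early arousal, with a difference of -0.69 ± 0.23 (adjusted p = 0.167). Groups without overlap were FBXL10 and USP30, 2 of 22 members, against 5.79% of all probes.

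From late arousal to early torpor 0 members were called (0% of all probes), with 5 at an unadjusted p under 0.05 against 8.05% of all probes. These were PSMB6, PSMB7, PSMD13, UBQLN1 and DERL2. The difference of PSMB7 was -0.74 ± 0.30, and -0.41 ± 0.26 on A1. That of DERL2 was -0.87 ± 0.33, and -0.63 ± 0.29 on A1. Late arousal animal 2, on A2, was the highest A animal in both, at 3.50 and 1.49. PSMB6 was at 0.40, -0.24, 0.18 and 1.11 in late arousal and at 1.46, 1.27, 1.31 and 1.29 in early torpor, a difference of 0.97 ± 0.37 (adjusted p = 0.453 by limma), and 0.77 ± 0.28 on A1. PSMD13 was at -1.23, -0.31, -0.69 and 0.27 in late arousal and at 0.85, 0.50, 0.20 and 0.43 in early torpor. Its difference was 0.98 ± 0.38 (adjusted p = 0.470 by limma), and 1.04 ± 0.30 on A1 (adjusted p = 0.342). Early torpor was the higher stage in both genes, with 1 late arousal animal within its range in PSMD13. UBQLN1 was at 2.38, 3.65, 2.32 and 2.34 in late arousal and at 2.12, 2.03, 1.08 and 2.09 in early torpor. These stages did not overlap in UBQLN1 and PSMB6, 2 of 22 members, against 4.62% of all probes. The early torpor minus late arousal difference of UBQLN1 was -0.84 ± 0.30, and -0.52 ± 0.26 on A1 filters, without the late arousal animal at 3.65.

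**Figure D4:**
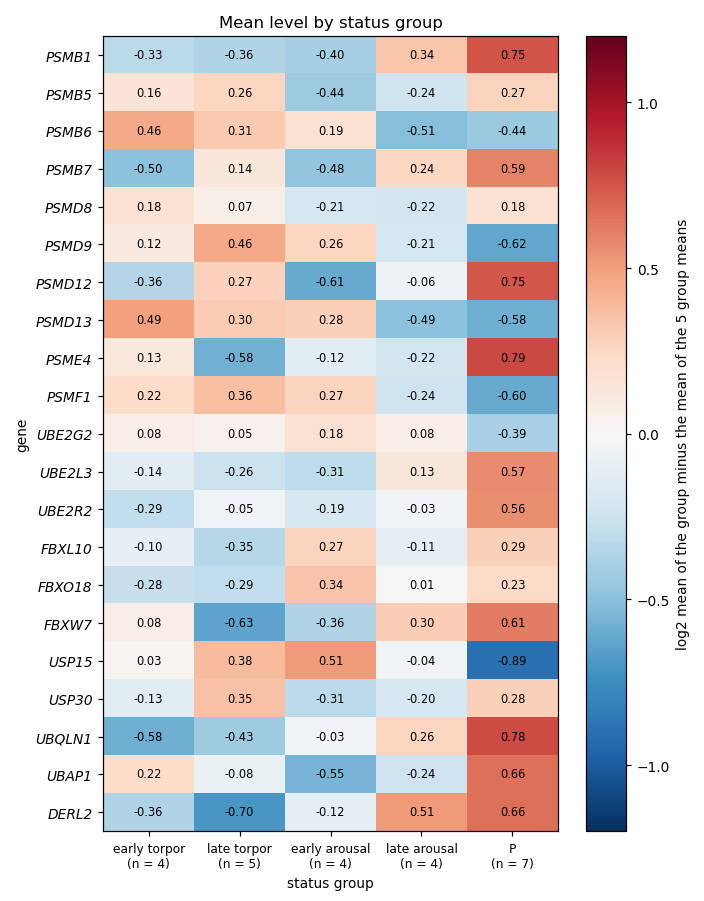
Mean level of each gene in the 5 status groups, in log2 relative to the mean of the 5 group means (red higher, blue lower). USP30 is highest in late torpor, UBQLN1 lowest in early and late torpor, and the value furthest from 0 is that of USP15 in P, at -0.89, where 5 of 7 animals were on A2 filters.

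The other ubiquitin and proteasome pathway genes of the list, 47 in all, comprised ligases and their subunits, COP9 signalosome and neddylation genes, partners of ER-associated degradation, SUMO pathway genes and a ubiquitin precursor. They too were picked by their differences between states, so the shares over all probes are an unlike comparison for them as well. In T against P 19 of 47 were called, 12 higher and 7 lower, beside 9.86% of all probes. In A against P 10 were called, 5 higher and 5 lower, beside 8.47%. None was called in T against A (0.469% of all probes), where 20 had an unadjusted p under 0.05 beside 14.1%. With the block 1 was called in T against P (0.969% of all probes) and 0 in A against P (2.71%), and no gene was called both without and with the block. The median absolute T minus P difference of the 47 was 0.53 without the block and 0.19 with it. The gene called with the block was FEM1B, a substrate receptor of a cullin-RING ligase, named here after its values were seen. Its T minus P difference was 0.51 ± 0.18 without the block (adjusted p = 0.0769 by limma) and 0.96 ± 0.22 with it (adjusted p = 0.0298). It was also the 1 gene called with the block in T against A, at 0.82 ± 0.16 (adjusted p = 0.0090 by limma), beside 1.29% of all probes. On A1 filters it was called in T against A with COPS7A, a COP9 signalosome subunit, again named after its values were seen, at 0.84 ± 0.16 and 0.79 ± 0.17, beside 1.38% of all probes.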

How the data were processed

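Liver RNA of 24 AGS was amplified, labeled with 33P and hybridized to filters of 9600 cDNA probes. The paper gives 1 batch for the RNA samples and does not mention the filter sets. The authors quantified spots with ImaGene 6.1.0. The deposited scanner files give median signal and background intensity per spot, with a flag for empty spots. The deposited series matrix gives the ratio of background-subtracted signal to the array median, which was recomputed here from the scanner files to within 5e-07. The log2 values of all probes entered linear models in limma 3.58.1 (lmFit, eBayes; R 4.3.3), with Benjamini-Hochberg adjustment and a threshold of 0.05. A spot at or below 0 was treated as missing (668 of 230400). States T, A and P were fitted together, stages as 5 groups, and the filter set with the 3 states in the model. The methods' ANOVA with Storey's q and Tukey's test was an alternative. Scripts were tested on simulated data.

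The 22 members enter every count, and all are named but 1, which is not reported here. Of other pathway genes the rule names those called both without and with the block. Members and lists were chosen with earlier results of these data known. Gene names came from the supplementary list, whose symbols the probes matched uniquely (largest distance 5e-06, next at least 0.00532). Of 22 symbols, 20 were in the RefSeq gene table of the species, and FBXL10 and FBXO18 are older symbols. Alternatives were the filter set or identifier prefix as a block, A1 filters alone, quantile normalization, normexp background correction (offset 50), empty spots as missing, a floor of 0.002, dim probes left out, the deposited ratio, 5 groups, the methods' test and leaving out each array. The labels tie each array to 1 animal. The number of arrays limits the precision. Columns of the supplement with the authors' p-values were not used, and its state means served only to match genes to probes.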

Additional observations from a re-analysis of the deposited data

Results flagged for a closer look

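Within the status groups, 9 values of members lay far from the others of their group, in a rule applied to 110 sets of 4 to 7 values (22 genes in 5 groups). Chance marks about 1 in 20 such sets.

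Late arousal animal 2, the A animal on an A2 filter, stood apart in 4 genes. It was at 0.79 for PSMB1 (the other 3 at -0.55 to -0.37), at -0.52 for PSMD9 (0.56 to 0.75), at 1.21 for UBE2R2 (-0.20 to -0.15) and at 3.65 for UBQLN1 (2.32 to 2.38). Among the P animals, P animal 3, on A1, was at -1.36 for PSMB1, where the other 6 lay between -0.15 and 0.77. Early arousal animal 1 was at -1.09 for PSMB1, where the other 3 lay between -0.82 and -0.79. In early torpor, animal 4 was at 2.83 for PSMB5 (the other 3 at 3.50 to 3.56) and at 0.81 for PSMD8 (1.26 to 1.28), and animal 3 was at 1.08 for UBQLN1 (2.03 to 2.12). The early torpor and early arousal arrays were all on A1 filters.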

How the results depend on the processing

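The counts of members past the threshold were 13 in T against P, 6 in A against P, 0 in T against A and in each stage comparison, and 13 for the filter set. In T against P the count was 0 with the filter set as a block, 1 on A1 filters alone, 6 with the identifier prefix as a block (04 in 7 of 9 T, 7 of 8 A and 1 of 7 P animals) and 8 with normexp. In A against P it was 0 with the filter block, 0 on A1, 1 with the prefix block (USP15) and 13 by the methods' test (13.2% of all probes). In T against A it was 1 on A1 (PSMB5), 1 with quantile normalization (UBQLN1) and 5 by the methods' test (DERL2, FBXO18, PSMB5, PSMD8 and UBQLN1, against 6.23% of all probes). From late torpor to early arousal normexp gave 1 (FBXL10). Of the named members called in T against P, the T minus P differences that turned their sign were those of PSMD9, to -0.017 with the filter block and -0.040 on A1, and PSMD13, to -0.15 on A1. The cause was not tested. Under the other alternatives each count was within 1.5 times its value above.

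Leaving out 1 array gave 8 (without P animal 5 or 6) to 18 (without P animal 3) in T against P. It gave 2 (without P animal 4) to 12 (without late arousal animal 2, P animal 1 or P animal 3) in A against P, and 3 without early arousal animal 1, 3 or 4 or P animal 6. It gave 0 to 1 in T against A (PSMB5 without late arousal animal 2, adjusted p = 0.0367 by limma), 0 in every stage comparison, and 8 (without late arousal animal 2) to 14 (without late torpor animal 5) for the filter set. No paired analysis was possible because the replicate numbers only name the animals. The 2 P animals on A1 limit every difference from P at equal filter set, and the standard errors there reached 0.41.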
